A study of Mus musculus with 53 samples.

Results

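Mitochondrial fatty acid beta-oxidation was followed through the mRNA levels of 9 enzyme genes in bone marrow-derived macrophages (BMDMs) exposed to interleukin-4 (IL-4). The genes were Cpt2, Acadvl, Acadl, Acadm, Acads, Hadha, Hadhb, Eci1 and Etfdh. They were taken by symbol from the deposited expression tables, and all 9 of 9 were found among the 23847 loci in each table. All of them reached at least 1 FPKM (a read level corrected for transcript length and for the number of mapped fragments in a library) in at least 1 sample and were tested together with the rest of the 11146 loci that did so.

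Beta-oxidation shortens fatty acids in the mitochondrial matrix. Long-chain acyl groups enter as carnitine esters and are returned to coenzyme A by Cpt2, carnitine palmitoyltransferase of the inner membrane. Each round then opens with a flavin-linked acyl-CoA dehydrogenase, chosen by chain length: Acadvl for very long chains, Acadl for long chains, Acadm for medium chains and Acads for short chains. The remaining steps on long chains are carried by the mitochondrial trifunctional protein, whose alpha subunit Hadha holds the hydratase and hydroxyacyl dehydrogenase activities and whose beta subunit Hadhb holds the thiolase. Eci1 is the enoyl-CoA isomerase that lets unsaturated chains through, and Etfdh passes the electrons of the dehydrogenases from electron transfer flavoprotein to ubiquinone. Alternatively activated macrophages, the state that IL-4 brings about through the transcription factor STAT6, are known for the use of this pathway.

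The series held 53 poly-A RNA-seq samples in 18 groups, from C57BL/6 wild-type (WT) mice and from mice with a full-body Stat6-/- knockout, aged 8 to 12 weeks. Marrow cells were grown into macrophages for 6 days in L929 cell supernatant as the source of M-CSF, a step that all groups shared. IL-4 was given at 20 ng/ml for 1, 3, 6 or 24 h beside untreated controls of each time, and untreated cells at 0 h were also sampled. There were 4 samples in each WT group except WT with IL-4 for 24 h, which had 3 (replicates 2, 3 and 4), and 2 in each Stat6-/- group. The study describes its WT values as averages over individual animals, but the labels number the replicates without tying a number to an animal, so the p-values measure the spread between these samples. Because the knockout is present in every cell from birth, its macrophages also differentiated without STAT6.

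The labelled genotypes and treatments were borne out by their own genes. Stat6 stood between 80.5 and 87.5 FPKM in WT cells at 0 h and at 20.3 and 21.9 FPKM in Stat6-/- cells. Arg1 and Retnla, classical IL-4 targets, reached 40.2 to 99.3 and 3441 to 5041 FPKM after 24 h of IL-4 in WT cells, against at most 0.0347 and 0.982 FPKM in Stat6-/- cells. The macrophage markers Csf1r, Emr1 and Cd68 were at 610 to 1081, 468 to 1840 and 780 to 1678 FPKM over all samples. The read depth is unknown, and the depth of the samples relative to each other ran from 0.699 to 1.54.

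Some libraries stood apart. Between the 2 Stat6-/- replicates, replicate 1 was the higher in all 9 Stat6-/- groups for 7 of the 9 genes, in 8 groups for Acadvl and in 3 for Eci1. Its median excess over replicate 2 was largest for Acads (1.49 times) and Hadhb (1.48 times) and smallest for Acadvl (1.05 times). The same replicates also differed in Itgax, counted below among the dendritic cell markers, at 2.32 and 37.6 FPKM in the Stat6-/- controls of 24 h. In WT cells, replicate 1 of the 0 h control stood away from the other three, at 43.5 FPKM for Acadvl where the others held 29.2 to 31.4. Comparisons between genotypes and over time in culture are given below with and without these libraries, and 0 of the 9 genes passed for IL-4 in Stat6-/- cells whichever Stat6-/- replicate was left out.

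Hadha and Hadhb encode the subunits of a single complex and lie head to head on chromosome 5. The files (mm10) place Hadha at 30118304-30154980 on the minus strand and Hadhb at 30155322-30184583 on the plus strand. In RefSeq (GRCm38.p6) 272 bases separate their starts, so that the 250 bases upstream of each share most of their sequence. The window of Hadhb is shown because both genes changed with IL-4, as described further on. Capitals mark the only match in it to TTCNNNGAA, the palindrome of STAT sites with a 3-base spacer, which reads alike on both strands.
Hadhb, upstream window, chr5:30155003-30155252, plus strand: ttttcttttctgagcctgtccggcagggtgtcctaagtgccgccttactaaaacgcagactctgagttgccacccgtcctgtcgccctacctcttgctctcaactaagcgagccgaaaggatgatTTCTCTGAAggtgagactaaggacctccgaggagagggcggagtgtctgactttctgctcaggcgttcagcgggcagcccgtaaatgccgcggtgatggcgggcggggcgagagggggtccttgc
The match lies 125 bases upstream of the Hadhb start and 156 bases upstream of the Hadha start. Some GENCODE transcripts of Hadha begin as far out as position 30155162, inside this window.

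Cpt2 held the only other match among the 9 genes, and it is shown for contrast because its mRNA level passed no test of an IL-4 response.
Cpt2, upstream window, chr4:107923590-107923839, minus strand: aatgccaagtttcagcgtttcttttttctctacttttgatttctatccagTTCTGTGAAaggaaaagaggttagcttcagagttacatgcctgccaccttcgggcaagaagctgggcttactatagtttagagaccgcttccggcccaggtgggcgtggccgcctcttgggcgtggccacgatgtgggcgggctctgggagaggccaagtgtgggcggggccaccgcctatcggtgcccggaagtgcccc
Thus 3 of 9 upstream windows held TTCNNNGAA, counting the shared site for both Hadha and Hadhb, and 7.02% of the 32851 RefSeq windows of that length did. The palindrome with a 4-base spacer that STAT6 prefers (TTC, any 4 bases, GAA) was in none of the 9 and in 5.85% of all windows. The estrogen-related receptor element TCAAGGTCA and the direct repeat of PPAR and RXR (AGGTCA, any base, AGGTCA), which share the letters AGGTCA, were in none of the 9 and in 0.387% and 0.0335% of all windows. Both strands were searched, and a match says only that these letters occur in the window.

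The other members lie apart from each other. In the files Cpt2 is at 107903982-107923589 on chromosome 4, Acadl at 66830839-66863309 on chromosome 1, Acadm at 153922353-153944643 and Etfdh at 79603788-79628767 on chromosome 3, Acadvl at 70010183-70015428 on chromosome 11, Acads at 115110299-115119346 on chromosome 5 and Eci1 at 24426683-24439316 on chromosome 17. All 9 are annotated as protein-coding, and FPKM here covers the exons of each locus. Exons of Acadvl overlap those of Dvl2 and exons of Hadha overlap those of Garem2. No level was available under the symbol Garem2, so its part in the Hadha values was not checked. The strand of the libraries is not given in the sources used here, so reads in the shared stretches cannot be told apart. Sequence shared with other genes was small, at 4.10% of the 50-base words for Acadm, 4.42% for Hadhb, 2.52% for Etfdh and 2.67% for Eci1.

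Before treatment Acadl, Hadha, Acadm and Acadvl stood highest. In WT cells at 0 h the levels per length were 43.1 ± 2.67 FPKM (SD, n = 4) for Acadl, 37.9 ± 2.23 for Hadha, 37.3 ± 1.51 for Acadm and 33.5 ± 6.68 for Acadvl. Acads followed at 25.6 ± 5.94 and Etfdh at 18 ± 1.15, and Hadhb, Eci1 and Cpt2 closed the order at 11 ± 1.89, 10.5 ± 1.56 and 10.3 ± 0.74 FPKM. Every neighbour in this order overlapped the next over the 4 samples, except Etfdh and Hadhb. All 9 lay between the 51.2 and 85.8 percentiles of the tested loci. Over all 53 samples the highest value of a gene was 1.49 times its lowest for Etfdh and up to 2.63 times for Hadhb, so none of the 9 was switched on or off.

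**Figure D1:**
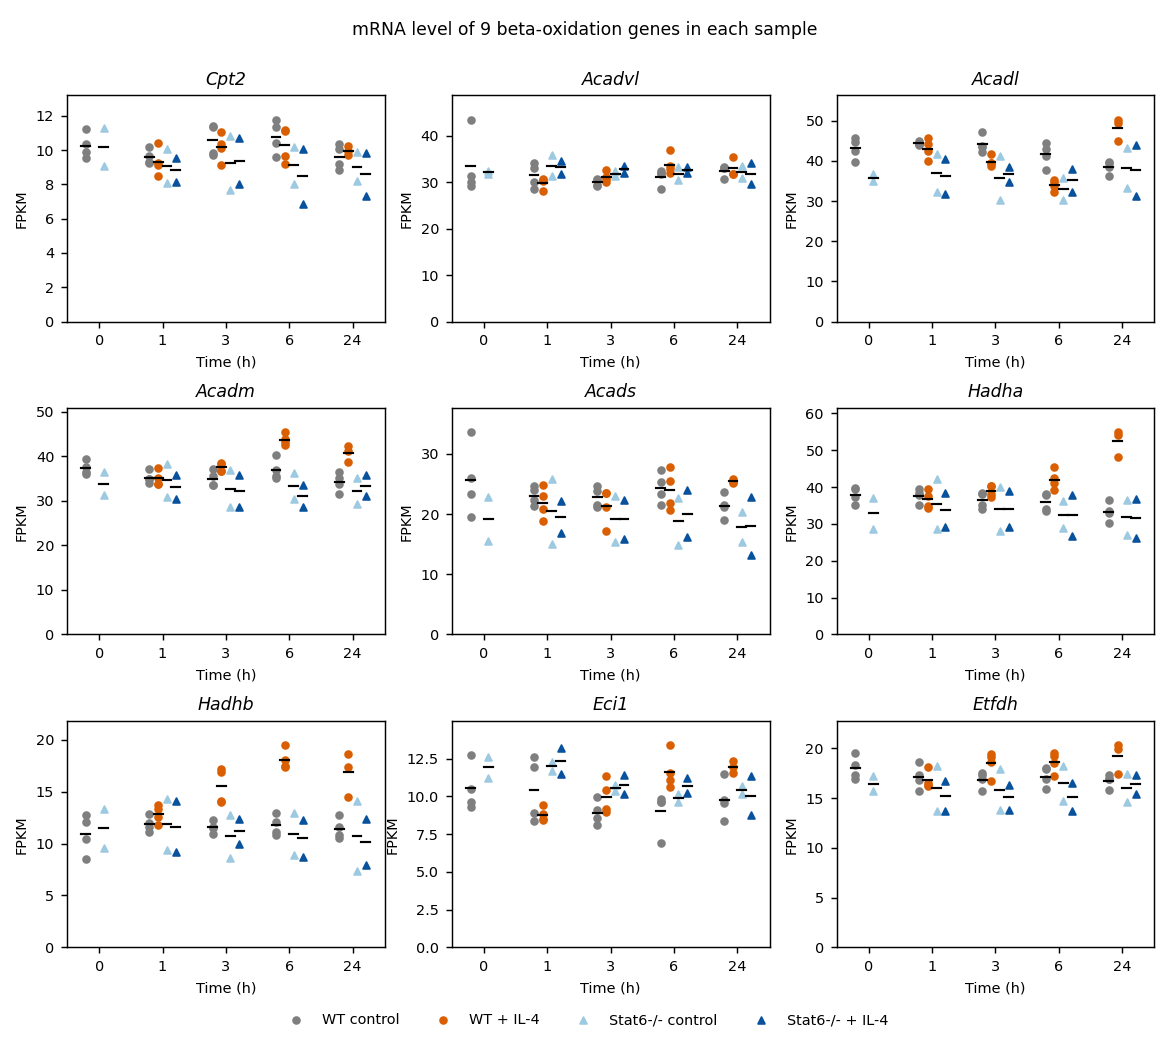
FPKM of the 9 genes (y axes, from 0) against time (x axis, hours, evenly spaced positions), with 1 point per sample and a black bar at the group mean. WT samples are circles and Stat6-/- samples triangles. Hadha with IL-4 at 24 h in WT cells (48.1 to 54.8 FPKM) stands above all other samples of that gene, and Acadl with IL-4 in WT cells lies below its controls at 6 h and above them at 24 h.

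In WT cells some of the 9 genes differed with IL-4, by less than 2-fold. The share called in either direction was near that of all loci at 6 and 24 h. Calls at 3 h depended on the fit, as given below. Change is given as log2 fold change (log2FC) on the log2(FPKM + 1) scale, IL-4 minus time-matched control, from limma, and a gene passed the test when its Benjamini-Hochberg adjusted p over all 11146 loci was under 0.05. None of the 9 genes passed at 1 h, where 9.39% of all loci did (5.67% higher and 3.72% lower), and none at 3 h, where 28.9% did (16.4% higher and 12.5% lower). At an unadjusted p under 0.05, 0 genes came out at 1 h (19.8% of all loci) and 1, Hadhb, at 3 h (37%). At 6 h, Hadhb, Eci1 and Acadm rose and Acadl fell, which made 3 of 9 higher against 22% of all loci and 1 of 9 lower against 19.2% (either direction 41.2%). At 24 h, Hadha, Hadhb, Acadl, Eci1 and Acadm rose and none fell, against 23.4% of all loci higher and 31.6% lower (either direction 55%). At an unadjusted p under 0.05 there were 4 genes at 6 h (48.4% of all loci) and 6 at 24 h (59.7%), Etfdh being the addition. In an analysis of variance over the groups with Tukey adjustment within each gene, 0 of the 9 passed at 6 h (25.4% of all loci) and 1, Hadha, at 24 h (33.2%). In bulk RNA, a change in the share of cells that carry a transcript and a change in its amount per cell cannot be told apart.

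Same-numbered WT samples with and without IL-4 deviated together (r over 0.1 across loci) in every pair at 3 and 6 h. At 3 h each IL-4 sample correlated more with the control of its own number than with any other. At 6 h replicate 2 did not (0.235 with its own number and 0.283 with another), so the numbers are less surely pairs there. With the replicate number as a block, Hadhb and Etfdh were higher and Acadl lower at 3 h (3 of 9 genes, 41.1% of all loci), and Hadha joined the other 4 genes at 6 h (5 of 9, 55.2%). At 24 h, where not every pair had r over 0.1, Acads and Etfdh joined the other 5 genes (7 of 9, 66.2%).

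In order of time, the median log2FC of the 9 genes was -0.04, 0.10, 0.11 and 0.25. The medians of all loci were -0.02, 0.01, 0.00 and -0.07. No member was 2-fold changed at any time, whereas 1.49%, 3.88%, 5.54% and 8.5% of all loci were called at that size at 1, 3, 6 and 24 h. All IL-4 samples lay above all controls for 0 genes at 1 h (8.27% of all loci), 1 at 3 h (20.8%), 4 at 6 h (23.8%) and 7 at 24 h (27.4%). They lay below all controls for 0 genes at 1 h (7.81%), for Acadl at 3 h (18.1%) and 6 h (22.3%), and for 0 genes at 24 h (37.1%).

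Hadha, the alpha subunit of the trifunctional protein, had the largest log2FC of the 9 genes at 24 h. Its WT controls at 24 h held 30.2, 33.6, 32.8 and 36.4 FPKM and the IL-4 samples 48.1, 54.2 and 54.8 FPKM. The groups were well apart, and the mean was 57.3% higher with IL-4 (log2FC 0.64, SE 0.13, limma adjusted p = 8.34e-05). At 6 h the controls held 33.6, 33.9, 38.2 and 37.8 FPKM and the IL-4 samples 39.1, 41.0, 42.3 and 45.4 FPKM. These did not overlap either, but the difference did not pass the test (log2FC 0.22, SE 0.12, limma adjusted p = 0.145, or 3.94e-05 with the replicate block). At 1 h the IL-4 samples, 34.3 to 39.6 FPKM, overlapped their controls, 35 to 39.5.

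Hadhb, the beta subunit, passed the test from 6 h on. At 3 h the controls held 10.9, 11.5, 12.3 and 11.6 FPKM and the IL-4 samples 14, 16.9, 17.2 and 14.1 FPKM. All IL-4 samples were above all controls, and the test was narrowly missed (log2FC 0.39, SE 0.16, limma adjusted p = 0.0539, or 2.02e-05 with the replicate block). At 6 h it rose, from 10.8, 11.1, 13.0 and 12.1 FPKM to 17.4, 19.5, 18.1 and 17.4 FPKM. That was 54.1% more than in the controls (log2FC 0.59, SE 0.16, limma adjusted p = 0.00231), the largest change of the 9 genes at this time. At 24 h the IL-4 samples were still higher, at 14.5, 18.7 and 17.4 FPKM against 10.6, 12.7, 11.6 and 10.9 FPKM (log2FC 0.52, SE 0.17, limma adjusted p = 0.00925). The 24 h call was lost without IL-4 replicate 3 (adjusted p = 0.0538).

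Since the subunits are made for a single complex, their ratio was followed in each sample. In WT controls Hadha stood at 2.99 to 3.29 times Hadhb at 1 h, and IL-4 brought the ratio to 2.77 to 2.91. At 3 h the controls lay between 3.05 and 3.29 and the IL-4 samples between 2.25 and 2.85, and at 6 h the ranges were 2.94 to 3.13 and 2.11 to 2.61. At all of these times the ratio was lower in 4 of 4 IL-4 samples than in any control. Among single loci, all IL-4 samples lay above all controls for 8.27% at 1 h, 20.8% at 3 h and 23.8% at 6 h. They lay below all controls for 7.81%, 18.1% and 22.3%. How often the ratio of other pairs of loci separates in this way was not measured. The mean log2 ratio differed by -0.16 at 1 h, -0.32 at 3 h and -0.40 at 6 h. Each had a two-sided exact permutation p = 0.0286, the smallest that 4 against 4 allows, and 0.0381 after Benjamini-Hochberg adjustment over the 4 times. With signs permuted within same-numbered pairs the exact permutation p was 0.125, the smallest that 4 pairs allow.

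At 24 h the ratio was back, at 2.64 to 3.35 in controls and 2.91 to 3.31 with IL-4. The difference of 0.10 on the log2 scale had an exact permutation p = 0.343, where 4 against 3 cannot go below 0.0571. In Stat6-/- cells the mean ratio was 2.94 to 3.19 in the 8 groups from 1 to 24 h, with IL-4 minus control at -0.03, -0.07, 0.03 and 0.04 on the log2 scale. No permutation test was run on these, since 2 against 2 samples cannot go below p = 0.333. The WT control of 0 h had the widest spread, 2.74 to 4.68, with replicate 1 at the top.

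**Figure D2:**
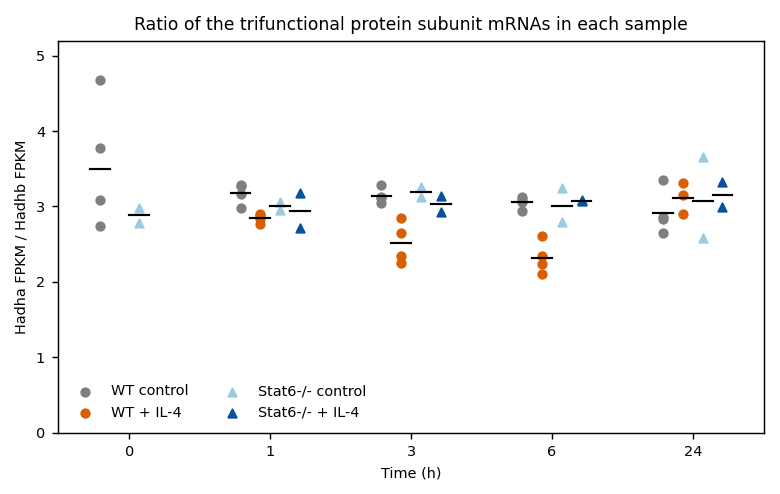
Hadha FPKM divided by Hadhb FPKM (y axis, from 0) in each sample against time (x axis, hours, evenly spaced positions), with black bars at the geometric mean of each group. WT samples with IL-4 lie below their controls at 1, 3 and 6 h and among them at 24 h, while the Stat6-/- means stay between 2.88 and 3.19.

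The long-chain dehydrogenase Acadl changed in opposite directions at 6 and 24 h. At 6 h the controls held 37.8, 41.3, 44.4 and 43.1 FPKM and the IL-4 samples 32.3, 33.9, 34.7 and 35.1 FPKM. Every IL-4 sample was below every control, and Acadl fell by 18.3% (log2FC -0.28, SE 0.09, limma adjusted p = 0.0114). At 24 h the controls held 36.3, 38.4, 39.8 and 39.4 FPKM and the IL-4 samples 45.0, 49.3 and 50.3 FPKM, which was 25.4% more (log2FC 0.32, SE 0.10, limma adjusted p = 0.00641). At 3 h the IL-4 samples, 38.8 to 41.8 FPKM, already lay below the controls, 42.3 to 47.2 FPKM, without passing the test (log2FC -0.15, limma adjusted p = 0.26, or 0.00924 with the replicate block).

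Acadm, the medium-chain dehydrogenase, was higher with IL-4 than in the time-matched controls at 6 h and at 24 h, by a like amount. At 6 h the controls held 35.6, 35.1, 40.2 and 37.0 FPKM and the IL-4 samples 42.6, 43.8, 43.2 and 45.3 FPKM (18.2% more, log2FC 0.24, SE 0.08, limma adjusted p = 0.0131). At 24 h the values were 31.6, 35.2, 36.5 and 33.8 FPKM against 41.2, 42.2 and 38.7 FPKM (18.8% more, log2FC 0.24, SE 0.08, limma adjusted p = 0.0142). The groups did not overlap at either time. The 24 h call was lost without IL-4 replicate 3 (adjusted p = 0.0609) or control replicate 1 (0.0536).

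The dehydrogenases at the ends of the chain-length range did not pass. Acads held 21.2, 18.9, 23.7 and 21.4 FPKM in the WT controls of 24 h and 25.2, 25.8 and 25.4 FPKM with IL-4. The IL-4 samples were the higher in 3 of 3, but the spread of Acads was wide elsewhere in the series and the test was not passed (log2FC 0.25, SE 0.19, limma adjusted p = 0.263). It was passed with only the samples compared in the fit (adjusted p = 0.0173) and with the replicate block (0.0182). Acadvl held 33.1, 30.7, 33.0 and 33.2 FPKM against 31.7, 31.7 and 35.4 FPKM, and its groups overlapped at every time (log2FC 0.02, SE 0.08, limma adjusted p = 0.863 at 24 h). Dvl2, whose exons overlap Acadvl, was itself at 6.71 to 8.56 FPKM in these controls and 8.47 to 9.35 with IL-4.

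Eci1, the isomerase for unsaturated chains, was close to the limit of the test. At 6 h the controls held 6.92, 9.66, 9.61 and 9.83 FPKM and the IL-4 samples 10.6, 11.1, 11.5 and 13.4 FPKM (29.4% more, log2FC 0.35, SE 0.11, limma adjusted p = 0.00931). At 24 h the controls held 11.5, 8.34, 9.74 and 9.56 FPKM and the IL-4 samples 11.6, 12.4 and 11.9 FPKM (log2FC 0.27, SE 0.12, limma adjusted p = 0.0471). The groups did not overlap, though control replicate 1 of 24 h reached almost to the IL-4 samples. The 6 h call was lost without control replicate 1 (adjusted p = 0.0828) or IL-4 replicate 4 (0.0503). The 24 h call was lost without each of the 3 IL-4 replicates or control replicates 2, 3 or 4 (adjusted p from 0.0683 to 0.163).

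Cpt2 and Etfdh, at the entry of acyl groups and the exit of electrons, did not pass. Cpt2 held 9.17, 8.84, 10.4 and 10.0 FPKM in the WT controls of 24 h and 9.95, 9.73 and 10.2 FPKM with IL-4 (log2FC 0.05, SE 0.11, limma adjusted p = 0.733). Etfdh held 15.8, 16.9, 17.3 and 16.9 FPKM against 17.5, 20.3 and 20.0 FPKM (log2FC 0.19, SE 0.09, limma adjusted p = 0.0761). Cpt2 overlapped its controls at all times, whereas Etfdh was higher in 3 of 3 IL-4 samples at 24 h. Etfdh at 24 h passed under quantile normalization (adjusted p = 0.0495), median-of-ratios scaling (0.0153), with only the samples compared (0.0326), with the replicate block (0.00358) and without IL-4 replicate 2 (0.0378).

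**Figure D3:**
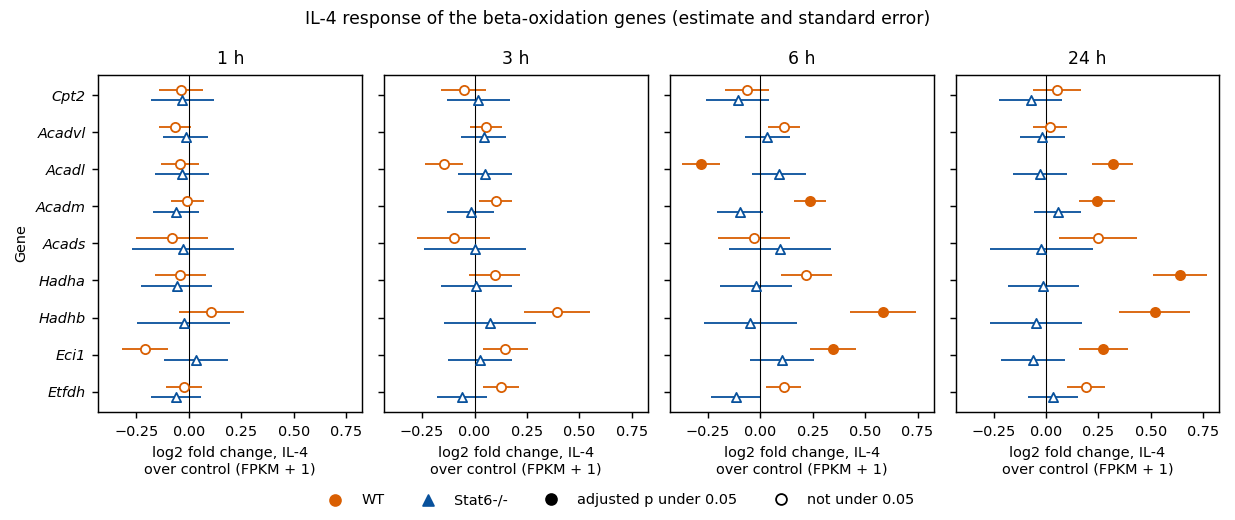
log2 fold change of IL-4 over time-matched control on the log2(FPKM + 1) scale (x axis) for each gene (y axis) at 1, 3, 6 and 24 h, with bars of 1 standard error. Orange circles are WT and blue triangles Stat6-/-, and filled symbols passed an adjusted p of 0.05. Filled symbols appear in WT at 6 h (4 genes, with Acadl on the negative side) and 24 h (5 genes), and the Stat6-/- estimates stay between -0.12 and 0.10.

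In Stat6-/- cells no response to IL-4 passed the test. By limma 0 of 9 genes passed at any time, nor did any locus (0% of all loci). At an unadjusted p under 0.05, 0 of the 9 genes came out, beside 51, 131, 88 and 37 loci (0.458%, 1.18%, 0.79% and 0.332%) in order of time. The analysis of variance with Tukey adjustment gave 0 of 9 as well. These fits count as spread what same-numbered Stat6-/- samples share (r 0.791 to 0.900), so small responses can be missed. With the replicate block 0 of the 9 genes passed at any time, beside 2, 4, 4 and 1 loci in order of time. The log2FC of the 9 genes lay between -0.06 and 0.04 at 1 h, -0.06 and 0.07 at 3 h, -0.12 and 0.10 at 6 h, and -0.07 and 0.05 at 24 h. For Hadha at 24 h the Stat6-/- controls held 36.5 and 27.0 FPKM and the IL-4 samples 36.8 and 26.3 FPKM. For Hadhb they held 14.1 and 7.40 FPKM against 12.3 and 7.91 FPKM. In both genes the gap between the replicates was larger than the difference with IL-4 in either replicate. At 6 h, Eci1 was the only gene with both IL-4 samples (10.2 and 11.2 FPKM) above both controls (9.65 and 10.2 FPKM), as were 7.44% of all loci, while 6.71% lay below. At the other times all 9 genes overlapped, where 7.45% of all loci lay above and 5.99% below at 1 h, 8.84% and 6.93% at 3 h, and 4.4% and 3.8% at 24 h.

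Whether the response itself differed between the genotypes was tested as WT minus Stat6-/- log2FC. Only Hadha at 24 h passed (difference 0.65, SE 0.21, limma adjusted p = 0.0208), 1 of 9 genes against 27% of all loci in either direction, while 3 (Hadha, Acadl and Hadhb) had an unadjusted p under 0.05 (38.6% of all loci). At 1, 3 and 6 h, 0 of 9 passed against 3.36%, 11.2% and 16.5% of all loci. At an unadjusted p under 0.05 there were 0 genes at 1 h (10.2% of all loci), 0 at 3 h (20.4%) and 3 at 6 h (27.3%). At 6 h these were Hadhb (difference 0.63, SE 0.27, limma adjusted p = 0.112), Acadm (0.33, SE 0.14, adjusted p = 0.0892) and Acadl (-0.37, SE 0.16, adjusted p = 0.109).

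With the replicate block, Acadl, Acadm, Hadha, Hadhb and Etfdh passed at 6 h (5 of 9 genes, 30.2% of all loci), and Hadha (adjusted p = 2.57e-08), Acadl (0.00152) and Hadhb (0.00102) at 24 h (3 of 9, 45%).

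The Hadha difference at 24 h was lost without Stat6-/- control replicate 1 (adjusted p = 0.241) or Stat6-/- IL-4 replicate 2 (0.26), and with only the 4 groups compared in the fit (0.0712). With replicate 1 left out of every Stat6-/- group it was 0.68, and with replicate 2 left out it was 0.63, and it passed both times (limma adjusted p = 0.000708 and 0.0014), each remaining sample being assumed to vary like the WT samples. Hadha passed at 24 h with Acadl when replicate 1 was left out (25.7% of all loci passed) and with Hadhb when replicate 2 was (28.2%). At 6 h the 3 genes Acadl, Acadm and Hadhb passed either way (15.6% and 17% of all loci).

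Without treatment no difference between the genotypes passed the test. At 0 h the Stat6-/- minus WT difference passed for 0 of 9 genes (2.18% of all loci), with 1, Acadl, at an unadjusted p under 0.05 (14% of all loci). At 24 h it passed for 0 of 9 (0.108%), with 0 at an unadjusted p under 0.05 (5.63%). Acadl was at 36.6 and 35.1 FPKM in Stat6-/- cells at 0 h and at 39.7, 42.4, 45.6 and 44.8 FPKM in WT cells (log2 difference -0.26, SE 0.11, limma adjusted p = 0.264). Both Stat6-/- controls lay below all WT controls for Acadl at 0 h (11.3% of all loci), 1 h (10%), 3 h (13%) and 6 h (10.8%), but not at 24 h. They lay above all WT controls for Acadvl (means 31.8 and 30.0 FPKM) and Eci1 (10.6 and 8.91 FPKM) at 3 h (10.1%), and the other genes overlapped at all times. When replicate 1 was left out of every Stat6-/- group, Acadl, Acadm, Acads and Hadha were lower in Stat6-/- cells at 0 h (8.27% of all loci), and Hadha and Hadhb at 24 h (7.4%). When replicate 2 was left out instead, none passed at either time, nor at 0 h without replicate 1 of the WT control.

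Time in culture alone gave no call among the 9 genes without the replicate block. From 0 to 24 h, 0 of 9 passed in WT controls (17.2% of all loci) and 0 of 9 in Stat6-/- controls (0.718%), with 0 at an unadjusted p under 0.05 in either (31.1% and 14.7% of all loci). In WT controls the log2 differences lay between -0.23 (Acads) and 0.07 (Hadhb). The WT count was still 0 without replicate 1 of the 0 h control. With the replicate block Acadl, Acadm, Acads and Hadha were lower at 24 h in WT controls (4 of 9 genes, with 23.3% of all loci lower). Means went from 43.1 to 38.5 FPKM for Acadl, 37.3 to 34.3 for Acadm, 25.6 to 21.3 for Acads and 37.9 to 33.3 for Hadha. In WT cells with IL-4 for 24 h the means were 48.2, 40.7, 25.4 and 52.4 FPKM in the same order. The part of this fall of the controls in the IL-4 differences at 24 h was not tested.

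The 5 genes that rose at 24 h stood beside other changes in these cells. The summed level of the 6 measured macrophage markers was 2604 to 2626 FPKM with IL-4 for 24 h and 3274 to 3773 in the WT controls, and all 6 were above 0. Within it Emr1 was at 468 to 478 FPKM against 992 to 1201 and Csf1r at 610 to 673 against 816 to 1033, whereas Cd68 was at 1227 to 1315 against 969 to 1248. The 6 dendritic cell markers summed to 209 to 290 FPKM against 9.11 to 18.1, of which Itgax held 208 to 288 against 6.08 to 16.8 FPKM. Ccr7 was at 0.674 to 1.51 against 0.693 to 3.90, Flt3 at 0.131 to 0.252 against 0.189 to 0.297, Siglech at 0.121 to 0.269 against 0.312 to 0.663 and Xcr1 at 0.0289 to 0.0396 against 0.0133 to 0.0621 FPKM. Zbtb46 was higher with IL-4, at 0.198 to 0.498 against 0.0720 to 0.0896 FPKM, and at 0.425 to 0.702 against 0.0671 to 0.129 at 6 h. The 6 neutrophil markers summed to 202 to 295 against 415 to 566 FPKM. The 8 lymphocyte markers, of which only Cd4 reached 1 FPKM, summed to 0.859 to 1.39 against 8.17 to 15.6 FPKM. Less had moved at 6 h, with the macrophage markers at 2958 to 3268 against 3104 to 3373 FPKM, the neutrophil markers at 313 to 393 against 291 to 419 and the dendritic markers at 16.7 to 24.0 against 5.02 to 7.61. Mast cell and basophil markers (5 genes, 0.837 to 1.42 against 0.687 to 1.85 FPKM), erythroid markers (5 genes, 0.133 to 0.316 against 0.333 to 0.935), stromal markers (6 genes, 0.160 to 0.200 against 0.289 to 0.808) and adipocyte markers (5 genes, 0.230 to 0.657 against 0 to 0.451) were low throughout, and Mcpt4 and Lep among them were at 0 in every sample. The part of these marker changes in the result was not tested.

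The carrier that hands electrons to Etfdh was higher with IL-4 than in the time-matched WT controls at 24 h. Etfa and Etfb, the subunits of electron transfer flavoprotein, take the electrons directly from the acyl-CoA dehydrogenases. Etfa held 19.8, 21.7, 20.5 and 22.2 FPKM in the WT controls of 24 h and 36.7, 34.5 and 37.7 FPKM with IL-4 (log2FC 0.76, SE 0.12, limma adjusted p = 1.42e-06). Etfb held 50.6, 45.6, 47.7 and 53.9 FPKM against 78.8, 74.3 and 76.1 FPKM (log2FC 0.62, SE 0.13, limma adjusted p = 0.000153). Both were well above their time-matched controls. At 0 h the WT controls held 54.7 to 92.0 FPKM for Etfb (median 62.0) and 20.6 to 23.8 for Etfa (median 21.7). The IL-4 response at 24 h also differed between the genotypes (WT minus Stat6-/- log2FC 0.81 for Etfa, limma adjusted p = 0.00176, and 0.58 for Etfb, adjusted p = 0.0433). Etfa and Etfb belong to a list of 17 other mitochondrial beta-oxidation and electron transfer enzymes, of which 4 rose and 4 fell at 24 h (median log2FC 0.00). As for the lists that follow, these counts stand beside 23.4% of all loci higher and 31.6% lower at 24 h. Acot2, an acyl-CoA thioesterase, fell (log2FC -0.62, SE 0.20, adjusted p = 0.00758). In untreated WT cells 6 of the 17 genes were lower at 24 h than at 0 h (11.6% of all loci lower), or 8 with the replicate block (23.3%). The part of this fall of the controls in the IL-4 differences was not tested.

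Fatty acid activation and the carnitine shuttle, which feed Cpt2, had 2 of 9 tested genes higher and 2 lower at 24 h. Crat, carnitine acetyltransferase, rose (log2FC 0.79, SE 0.15, limma adjusted p = 2.32e-05), and Acsl1, an acyl-CoA synthetase, fell (-0.47, SE 0.10, adjusted p = 0.000157). The carnitine transporter Slc22a5 had risen at 3 h (1.69, SE 0.09, adjusted p = 5.47e-18) and 6 h (1.44, adjusted p = 5.55e-16) and was lower than control at 24 h (-0.36, adjusted p = 0.00274). Acsl3 fell at 6 h (-1.11, SE 0.12, adjusted p = 1.6e-09) and did not differ past the test at 24 h (0.23, adjusted p = 0.147).

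Of 14 tested peroxisomal genes, 3 rose and 5 fell at 24 h (median log2FC -0.12), shares near those of all loci (23.4% and 31.6%). Decr2 (-0.53, SE 0.08, limma adjusted p = 1.39e-06), a peroxisomal dienoyl-CoA reductase, and Crot (-0.48, SE 0.08, adjusted p = 3.29e-06), carnitine octanoyltransferase, fell. The transporter Abcd3 rose (0.47, SE 0.11, adjusted p = 0.000601). Abcd2, another peroxisomal transporter, rose at 1 h (1.10, SE 0.15, adjusted p = 6.29e-07), when none of the 9 mitochondrial genes passed.

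Among 9 tested regulators of fatty acid oxidation, 3 rose and 1 fell at 24 h, or 4 and 4 with the replicate block (all loci 23.4% higher and 31.6% lower). Ppargc1b, the coactivator PGC-1beta, rose from 1 h on, with log2FC 0.40 at 1 h (adjusted p = 0.00365), 1.64 at 3 h (adjusted p = 4.4e-17), 1.32 at 6 h (adjusted p = 2.27e-14) and 1.13 at 24 h (SE 0.10, limma adjusted p = 1.47e-11). Pparg, a nuclear receptor for fatty acids, rose at 6 h (0.45, adjusted p = 0.00284) and 24 h (1.18, SE 0.13, adjusted p = 1.56e-09). Ppard fell at 24 h (-0.56, SE 0.12, adjusted p = 0.000252), and Angptl4, a secreted lipase inhibitor and PPAR target, fell at 1 h (-1.23, SE 0.33, adjusted p = 0.00894) and 6 h (-1.19, adjusted p = 0.00322). Ppara, Ppargc1a, Pdk4 and Ucp3 stayed under 1 FPKM in every sample and were not tested.

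In the citric acid cycle, which takes up its acetyl-CoA, 11 of 17 genes rose at 6 h and none fell (all loci 22% higher and 19.2% lower), and 12 rose and 1 fell at 24 h (median log2FC 0.33). Idh3a, the catalytic subunit of NAD-linked isocitrate dehydrogenase, gained the most at 24 h (1.26, SE 0.09, limma adjusted p = 7.53e-14), followed by Mdh2 (0.90, SE 0.11, adjusted p = 1.31e-08). Suclg2, of the GTP-forming succinyl-CoA ligase, fell (-0.88, SE 0.13, adjusted p = 5.16e-07), and the fumarase gene Fh1 rose at 3 h (1.22, SE 0.15, adjusted p = 2.78e-08) without a call at 24 h (-0.04). In WT controls 3 of the 17 genes were lower at 24 h than at 0 h (11.6% of all loci lower), or 6 with the replicate block (23.3%). The part of this fall in the IL-4 differences was not tested.

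Fatty acid synthesis, the opposite pathway, had 6 of 8 tested genes higher and none lower at 24 h (median log2FC 0.51). They included the desaturase Scd2 (2.93, SE 0.26, limma adjusted p = 7.58e-12), fatty acid synthase Fasn (1.2, SE 0.11, adjusted p = 1.48e-11) and the acetyl-CoA carboxylase Acaca (0.73, SE 0.06, adjusted p = 4.99e-13). Untreated WT cells had 5 of the 8 synthesis genes lower at 24 h than at 0 h (median log2 difference -0.26, 11.6% of all loci lower). In Stat6-/- controls the median was -0.25 and none passed (0.718% of all loci). The part of this fall of the controls in the IL-4 difference was not tested. Of 15 genes of lipid uptake, storage and lipolysis, 3 rose and 2 fell, or 5 and 3 with the replicate block (all loci 23.4% higher and 31.6% lower). The fatty acid translocase Cd36 (1.32, SE 0.41, adjusted p = 0.00594), the lipase cofactor Abhd5 (0.86, SE 0.10, adjusted p = 5.51e-09) and lipoprotein lipase Lpl (0.57, SE 0.22, adjusted p = 0.0276) were the 3 that rose. In these lists, as in the 9 genes, none passed at any time in Stat6-/- cells.

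**Figure D4:**
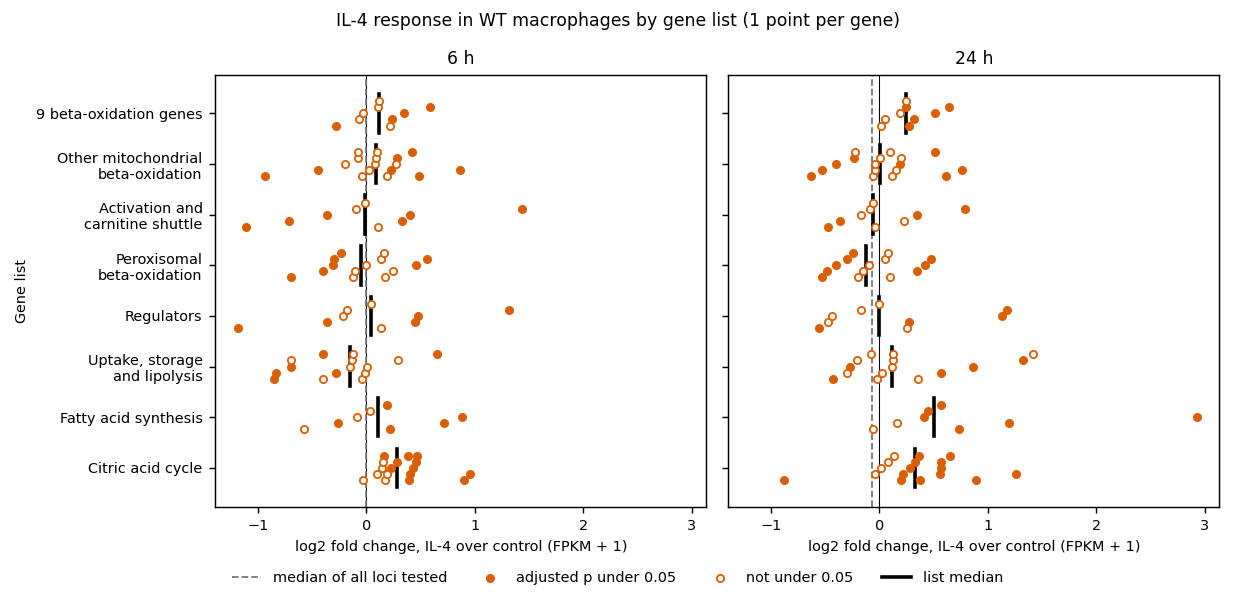
log2 fold change of IL-4 over control in WT cells on the log2(FPKM + 1) scale (x axis) at 6 and 24 h, with 1 point per tested gene in each list (y axis, small vertical offsets only separate points). Filled points passed an adjusted p of 0.05, black bars are list medians and the dashed line is the median of all loci. At 24 h the dashed line is at -0.07. The medians of the 9 genes (0.25), fatty acid synthesis (0.51) and the citric acid cycle (0.33) lie to its right. The median of the peroxisomal list (-0.12) lies to its left and that of the carnitine list (-0.06) beside it.

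Across the 18 group means the 9 genes did not form a single profile. Each member was correlated with the mean of the 9 genes after standardisation, a mean that includes the member itself. Pearson's r was 0.94 for Hadha, 0.93 for Acadm, 0.87 for Etfdh, 0.85 for Hadhb and 0.84 for Acads, but 0.69 for Cpt2, 0.54 for Acadl and 0.25 for both Eci1 and Acadvl. The closest pair was Acadm and Etfdh (r = 0.91), Acadvl and Eci1 went with each other (0.83), and Acadl and Acadvl were the most unlike (-0.40). The points share libraries and replicate differences, so these are descriptions.

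Among the 7692 loci with a mean of at least 5 FPKM, the profiles most like the mean of the 9 genes over the 18 groups were those of Mrpl43 (r = 0.95), Plekho1 (0.94), Sdha (0.94), Aven (0.93) and Mpp6 (0.93). Sdha, a subunit of succinate dehydrogenase, belongs to the citric acid cycle list above. Hadha was matched most closely by Ckap4 and Anxa4 (r = 0.98 each) and Hadhb by Stt3b and Lipn (0.97 each). Acadl was closest to Snx7 and Gpnmb (0.93 and 0.92), Acadm to Gtf2h1 and Oxct1 (0.93 and 0.92), Acads to Pafah2 and Hmg20b (0.93 and 0.92) and Eci1 to Diablo and Ppie (0.93 and 0.89). The nearest to Etfdh were Acadm and Mlec (0.91 and 0.90), to Acadvl Eci1 and Cib1 (0.83 and 0.81) and to Cpt2 Rpl10 and Tesk1 (0.84 and 0.83).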

How the data were processed

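Total RNA of BMDMs (1 µg, poly-A selected TruSeq libraries) was sequenced in paired reads. The authors aligned the reads to mm10 with TopHat2 2.0.7 and deposited FPKM values per locus from Cufflinks 2.0.2 for each of the 53 samples. The gene annotation they used is not given in the sources used here. No counts were used, so the depth is unknown and no counting interval is given.

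Loci under 1 FPKM in every sample were left out, and log2(FPKM + 1) was fitted with limma 3.58.1 in R 4.3.3 (trended eBayes, 18 group means, 35 residual degrees of freedom), without a replicate block. Deviations from the group means of same-numbered WT samples with and without IL-4 correlated over 0.1 in every pair at 3 h and 6 h but not at 1 h or 24 h, so blocked values stand beside the results they change. Tests were two-sided, with Benjamini-Hochberg adjustment over 11146 loci. Of these, 75 share a symbol with another locus, and none of the 9 genes does. Fold changes on this scale understate those of low genes. Ratios were compared with exact permutation tests (scipy 1.17.1, Python 3.11.15). Locations and overlaps were read from GENCODE M21 (GRCm38) and windows from RefSeq (GRCm38.p6).

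The 9 genes, the gene lists and the tests were chosen with earlier results of these data known. From each pathway list the text names the 3 passing genes with the largest change in WT at 24 h and every gene changed 2-fold at any time in WT. Etfa and Etfb were shown per sample as partners of Etfdh. Genes of like pattern are the 5 nearest to the mean of the 9 and the 2 nearest to each. Alternatives were another pseudocount, other filters and scalings, the samples compared alone, a replicate block, a per-gene analysis of variance over the 18 groups with Tukey adjustment (the study used a 2-way analysis of variance with post hoc tests), and each replicate left out.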

Additional observations from a re-analysis of the deposited data

Results flagged for a closer look

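In 72 groups of 4 WT samples (9 genes in 8 groups), 5 had a sample whose distance from the nearest other, divided by the range of the group, was above Dixon's critical value for 4 samples, and chance alone gives about 1 in 20, or 3.6. Acadvl had 3 of them: replicate 1 of the 0 h control at 43.5 FPKM (others 29.2 to 31.4), replicate 1 of the 6 h control at 28.5 (others 31.7 to 32.4) and replicate 2 of the 24 h control at 30.7 (others 33.0 to 33.2). Etfdh was at 18.2 FPKM in replicate 4 of WT with IL-4 for 1 h (others 16.2 to 16.5). Eci1 was at 6.92 FPKM in replicate 1 of the WT control of 6 h (others 9.61 to 9.83), and the Eci1 call at 6 h was lost without that sample.

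The IL-4 response of Hadha at 24 h differed between WT and Stat6-/- cells by a test of the difference itself (0.65 on the log2 scale, limma adjusted p = 0.0208). It was higher in 3 of 3 WT samples with IL-4 than in any WT control, while the 2 Stat6-/- samples with IL-4, 36.8 and 26.3 FPKM, lay next to their controls at 36.5 and 27.0.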

How the results depend on the processing

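No passing call of the 9 genes changed direction under any alternative, but several counts moved. For IL-4 in WT, 2 genes passed at 3 h (0 in the fit as reported) when only the samples compared were fitted (39.6% of all loci). With Tukey adjustment in an analysis of variance over the groups 0 passed at 6 h (4 as reported, 25.4% of all loci) and 1, Hadha, at 24 h (5 as reported, 33.2%). For WT minus Stat6-/- at 24 h (1 as reported), 2 passed under median-of-ratios scaling (28% of all loci) and 0 with only the samples compared (18.2%). Leaving out single replicates gave 3 to 4 genes for WT at 6 h (37.1 to 38.5% of all loci) and 2 to 5 at 24 h (48.3 to 53.1%), with 2, Hadha and Acadl, without IL-4 replicate 3. For WT minus Stat6-/-, with the added alternative named next, it gave 0 to 3 genes at 6 h (13.1 to 17% of all loci) and 0 to 3 at 24 h (13.8 to 36.2%). An added alternative, chosen after seeing the data, left out 1 Stat6-/- replicate of every group. It gave 3 genes at 6 h and 2 at 24 h for WT minus Stat6-/-, and without replicate 1 it gave 4 (0 h) and 2 (24 h) for Stat6-/- minus WT, all lower, so leave-one-out ranges there are 0 to 4 and 0 to 2. The count of the other 10 comparisons was the same whichever replicate was left out. Acadm at 6 h did not pass under quantile normalization (0.0561), nor Eci1 at 24 h without the filter on low values (0.0891). The causes were not tested.

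Same-numbered WT samples with and without IL-4 deviated together with r over 0.1 in 13 of 15 pairs (0.0265 to 0.561), including every pair at 3 h and 6 h but not at 1 h or 24 h. In Stat6-/- cells 8 of 8 pairs did so (0.791 to 0.900), where 2 samples a group give both pairs the same r. In WT cells a control of another number correlated more than the same-numbered control for replicates 3 and 4 at 1 h and replicate 2 at 6 h. With the replicate block 3 genes passed for IL-4 in WT at 3 h (41.1% of all loci). For WT minus Stat6-/-, 5 passed at 6 h (30.2%) and 3 at 24 h (45%), and for WT controls from 0 to 24 h 4 passed, all lower (23.3% of all loci lower). Other counts of the 9 genes moved by at most 1.5 times with the block, and those of the pathway lists at 24 h by more for regulators (1 to 4 lower) and lipid uptake (3 to 5 higher).

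The difference of the Hadha to Hadhb log2 ratio kept its sign. As a difference of medians it was -0.17, -0.32 and -0.43 in order of time (1, 3 and 6 h), with exact permutation p = 0.0571. With signs permuted within same-numbered pairs (the replicate block) it was -0.16, -0.32 and -0.40, with exact permutation p = 0.125, the smallest 4 pairs allow. Leaving out each replicate gave -0.19 to -0.14 at 1 h, -0.38 to -0.27 at 3 h and -0.46 to -0.35 at 6 h, with exact permutation p = 0.0571, the smallest 4 against 3 allow.

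The medians of all loci shifted by at most 0.1 on the log2 scale under any scaling. Sequencing depth limits what can be said of small differences, and 2 samples a Stat6-/- group limit the comparisons with WT.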
